A study of Mus musculus with 6 samples.

Results

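The nuclear genes that copy and read mitochondrial DNA (mtDNA) were followed in macrophages treated with zoledronic acid (ZA), a nitrogen-containing bisphosphonate used against bone resorption. They were chosen by name: Tfam, Polrmt, Tfb1m, Tfb2m, Tefm, Polg, Polg2, Twnk, Lrpprc and Slirp, which are 10 of the 35434 genes in the expression table. All 10 were found in the table, and 9 of them were among the 9800 genes tested. The study asked how ZA alters macrophages, and it sequenced RNA from bone marrow-derived macrophages (BMDMs), the macrophages that grow from marrow cells in the presence of the growth factor M-CSF. The cells came from the femurs of C57BL/6 mice and were cultured for 7 days with M-CSF at 10 ng/ml. There were 3 libraries of cells without ZA (Ctrl) and 3 libraries of cells taken 12 h after ZA stimulation, and both groups shared strain, marrow source and M-CSF. The ZA concentration behind these libraries, and whether the 3 cultures of a group came from separate mice, are not given in the sources used here, so p-values measure only the spread between these libraries.

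Mitochondria keep a small circular genome that encodes a few subunits of the respiratory chain, together with the ribosomal and transfer RNAs needed to make them. Every protein that copies, transcribes or stabilises these molecules is encoded in the nucleus and imported. Transcription starts when TFAM bends the promoter and TFB2M helps the RNA polymerase POLRMT to open it, TEFM keeps the polymerase moving, the helicase Twinkle and the polymerase POLG copy the DNA, and the LRPPRC and SLIRP proteins hold the mRNAs until they are translated.

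Values are FPKM, fragments scaled by the length of the gene and by the total of the library. The 6 libraries held between 41230600 and 42155808 fragments, and each gene's whole fragments were recovered from its FPKM. A member had between 84 and 2379 fragments in a library, which limits the precision of the rarest ones. Markers of macrophages were abundant, with summed levels of 23531 to 27424 FPKM in Ctrl and 24407 to 27884 FPKM in ZA, and all 8 were at 1 FPKM or more. Most of each sum was Lyz2, at 20472 to 24406 FPKM in Ctrl and 21272 to 24669 FPKM in ZA. Adgre1 was at 532 ± 5.93 FPKM in Ctrl and 581 ± 13.4 FPKM in ZA (SD, n = 3 each). Csf1r was at 772 ± 4.93 and 835 ± 11.9 FPKM, and Cd68 at 1332 ± 12.4 and 1348 ± 4.31 FPKM. None of them passed the adjusted threshold of the main fit below, but Adgre1 and Csf1r did with voom, described below. Summed markers of neutrophils and myeloid progenitors were between 36.8 and 52.1 FPKM in Ctrl and between 33.0 and 37.9 FPKM in ZA, with 7 of the 11 at a mean of 1 FPKM or more and 1, Ly6g, at 0. Those of stromal cells were at 18.4 to 32.7 FPKM in Ctrl and 16.5 to 23.7 FPKM in ZA, with 4 of the 5 at a mean of 1 FPKM or more. The highest of the remaining lists, that of T and NK cells, was at 8.68 to 9.18 FPKM in Ctrl and 8.44 to 9.85 FPKM in ZA.

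None of the genes of mtDNA expression tested changed with ZA at the adjusted threshold. By limma on log2(FPKM + 1) with Benjamini-Hochberg adjustment over all genes, 0 of the 9 members tested had an adjusted p under 0.05, and the lowest adjusted p was 0.422. At an unadjusted p under 0.05 the count was again 0 of 9, and it was 1 of 9, Lrpprc, with voom, limma's method for counts, on the recovered fragments. Over all 9800 genes 36 passed the adjusted threshold (0.367%) and 1210 passed the unadjusted one (12.3%, with 7.5% higher and 4.85% lower in ZA). Log2 fold changes of the members (ZA minus Ctrl) ran from -0.14 for Slirp to 0.08 for Polg2, 7 above 0 and 2 below. Their median was 0.02, beside 0.01 over all genes, of which 56.9% were above 0. The median size of the change regardless of sign was 0.05 for the members and 0.04 for all genes. All 9 of the 95% intervals held 0, and together they spanned -0.34 to 0.31. The scale of FPKM + 1 narrows the intervals of genes near 1 FPKM: with voom on the fragments 8 of the 9 intervals held 0, all but that of Lrpprc, and they spanned -0.34 to 0.52. Changes inside a gene's interval remained compatible with these 3 libraries a group, so small changes were not excluded.

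**Figure D1:**
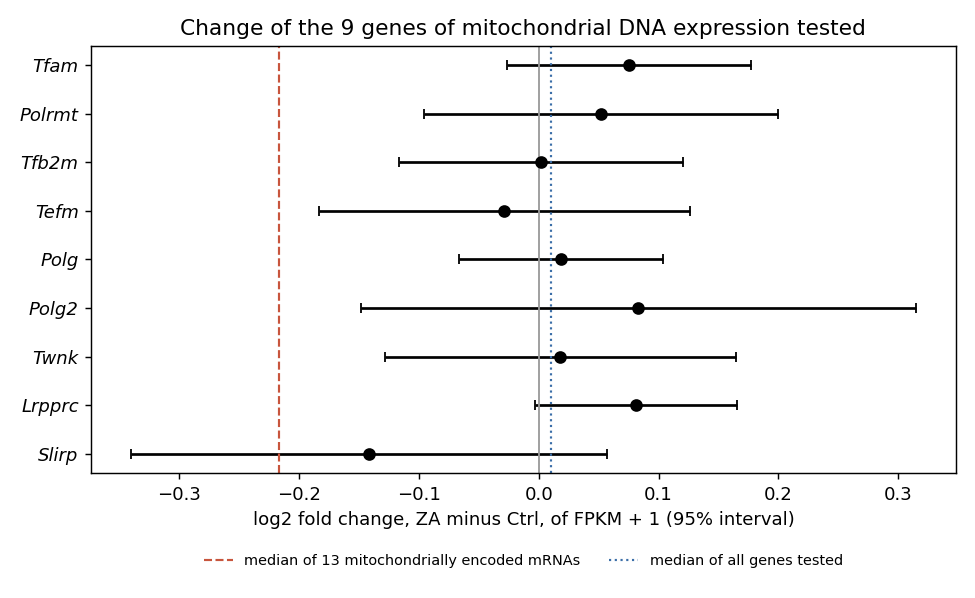
Log2 fold change (ZA minus Ctrl, of FPKM + 1) of the 9 genes tested, as points with 95% intervals from limma. Every interval crosses 0, the dashed line at -0.22 is the median change of the 13 mRNAs that mtDNA itself encodes and the dotted line is the median of all genes, 0.01. On this scale the intervals of low genes such as Tefm and Polg2 are narrower than on fragments, where both hold the median of the 13 mRNAs.

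In Ctrl and ZA alike, the levels in FPKM fell into a wide order. Slirp was the highest at 35.8 to 47.4 FPKM over the 6 libraries, Lrpprc followed at 11.2 to 12.3 FPKM, and Tfb2m came next at 5.51 to 6.45 FPKM. Polg, Polrmt and Tfam were next and their ranges overlapped, with 4.24 FPKM the lowest and 5.16 FPKM the highest value among them. Below them Tefm, Twnk and Polg2 overlapped in neighbouring pairs, from 1.26 to 2.78 FPKM, and Tfb1m was the lowest at 0.924 to 1.01 FPKM. FPKM depends on the gene length used: the length behind Slirp was 419 bases against 3104 exon bases in GENCODE (GRCm38), and that of Polg2 was 1577 against 4356. That of Lrpprc was 4625 against 8504. The lengths behind Tefm (2111 against 1570) and Tfb1m (4555 against 3609) were longer than in GENCODE. By fragments Slirp had 632 to 829 in a library and Lrpprc 2147 to 2379, so their order by fragments was the reverse of that by FPKM. Polg2 had 84 to 132 fragments and Tfb1m 175 to 193, so by fragments Polg2 and not Tfb1m was the lowest. Ratios of FPKM between genes, given below, rest on the lengths used too.

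**Figure D2:**
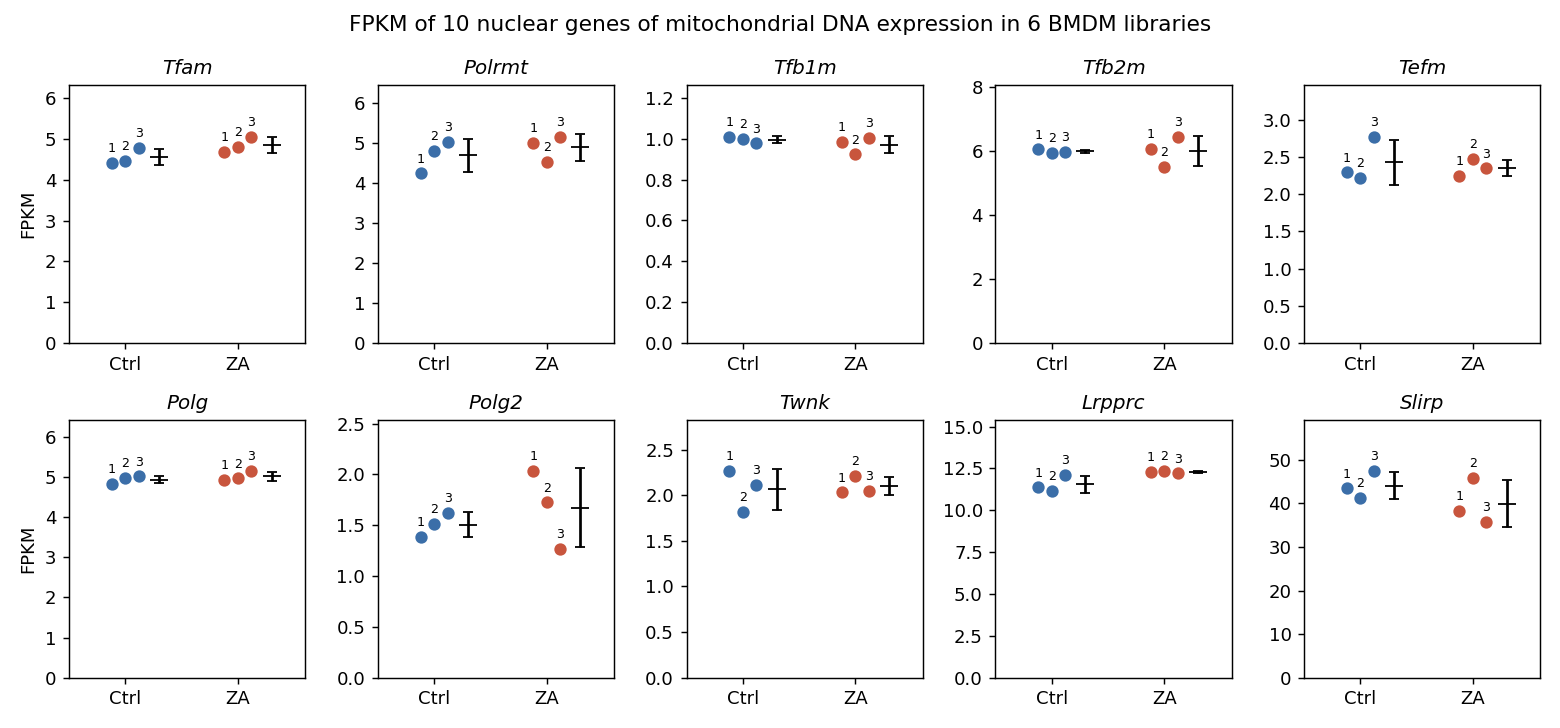
FPKM of each of the 10 genes in the 3 Ctrl libraries (blue) and 3 ZA libraries (red), numbered by replicate, with the mean and SD in black; each panel starts at 0 and has its own scale. For Lrpprc the 3 ZA points lie at 12.2 to 12.3 FPKM above all Ctrl points, and in the other panels the groups overlap.

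A feature that the choice by name did not use was looked for in the promoters. GABP, an ETS-family factor, and NRF1 are known regulators of nuclear genes for mitochondrial proteins. The RefSeq windows from 250 bases before to 50 bases after each gene's start (GRCm38.p6) were searched on both strands for the ETS core CCGGAAG (reverse complement CTTCCGG) and for the NRF1 core, which is GCGCA and GCGC with any 1 base between them. The ETS core was in 7 of the 11 windows of the 10 members, and these windows belonged to 7 genes. It was in 19.6% of the 10038 windows of genes tested and in 8.86% of all 32851 windows. The NRF1 core was in 1 of the 11 member windows, in Polrmt, where its 2 matches overlap. It was in 11% of windows of tested genes and in 4.6% of all windows. Neither run of letters was in the windows of Tfb1m, Tfb2m or Lrpprc, which says nothing of the factors themselves. The following 30-base stretches show the match nearest to the start in each gene, 5′ to 3′ on the strand that carries the core as spelled above, with the core in capitals:
Tfam, chr10:71238073-71238102, minus strand: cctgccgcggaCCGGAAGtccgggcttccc
Polrmt, chr10:79746606-79746635, plus strand: gttctgcgactgCCGGAAGcgctcttaggg
Polrmt with the overlapping NRF1 cores, chr10:79746562-79746591, plus strand: tgcccgcagtGCGCACGCGCACGCGCcgcc
Tefm, chr11:80142144-80142173, minus strand: agcacacgaaaCCGGAAGttgaggaggaac
Polg, chr7:79466293-79466322, minus strand: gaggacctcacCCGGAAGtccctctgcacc
Polg2, chr11:106779548-106779577, plus strand: tagaccacgcccCCGGAAGagcgtcacccg
Twnk, chr19:45006481-45006510, minus strand: ctcgcggtgactCCGGAAGcaaaactctcc
Slirp, chr12:87443874-87443903, minus strand: ggagtcgtgaccCCGGAAGaacctgccaga

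These matches lie close to the starts. The first base of the match was at -9 from the start in Tefm, -11 in Slirp, -29 in Polg2, -38 in Polg, -43 in Polrmt, -47 in Tfam and -66 in Twnk. Genes with and without the ETS core in this window were found at high and at low levels: Slirp has it and Lrpprc does not, Polg2 has it and Tfb1m does not.

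The transcription machinery came first. Tfam, which packs mtDNA into nucleoids and bends its promoters, was at 4.42, 4.46 and 4.78 FPKM in Ctrl 1, 2 and 3 and at 4.69, 4.81 and 5.06 FPKM in ZA 1, 2 and 3. ZA 3 was the highest library and ZA 1 lay below Ctrl 3, so that the groups overlapped. The means were 4.55 ± 0.193 FPKM in Ctrl and 4.85 ± 0.191 FPKM in ZA (SD, n = 3 each), a log2 fold change of 0.08 ± 0.04 (SE; limma adjusted p = 0.529) with a 95% interval of -0.03 to 0.18.

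Polrmt, the single-subunit RNA polymerase of mitochondria, was at 4.24, 4.81 and 5.03 FPKM in Ctrl and at 5.003, 4.52 and 5.16 FPKM in ZA. Ctrl 1 was the lowest library, and the other 2 Ctrl libraries lay within the ZA range. The log2 fold change was 0.05 ± 0.06 (SE; limma adjusted p = 0.787), with an interval of -0.10 to 0.20.

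The initiation factor Tfb2m was at 6.05, 5.95 and 5.97 FPKM in Ctrl and at 6.07, 5.51 and 6.45 FPKM in ZA. The Ctrl libraries were close together, with an SD of 0.0529 FPKM, while ZA 2 and ZA 3 lay on either side of all of them and gave an SD of 0.473 FPKM. Its log2 fold change was 0.0021 ± 0.05 (SE; limma adjusted p = 0.994), the smallest among the members, and its sign turned under median centring and under quantile normalization (-0.01 in each). The interval was -0.12 to 0.12.

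Tfb1m, a relative of Tfb2m that methylates the ribosomal RNA of the small mitochondrial subunit, was at 1.01, 0.998 and 0.978 FPKM in Ctrl and at 0.985, 0.924 and 1.01 FPKM in ZA. Both groups lay around 1 FPKM with overlapping ranges, and a mean of 0.984 FPKM over the 6 libraries left it below the filter of 1 FPKM. This mean rests on a length of 4555 bases, where GENCODE gives 3609 exon bases, and a shorter length gives a higher FPKM. In the fit without the filter the log2 fold change of Tfb1m was -0.02 ± 0.03 (SE; limma adjusted p = 0.898), with an interval of -0.10 to 0.07. Tfb2m stood at 5.96 to 6.42 times the FPKM of Tfb1m over the 6 libraries.

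The elongation factor Tefm was at 2.30, 2.22 and 2.78 FPKM in Ctrl and at 2.25, 2.47 and 2.35 FPKM in ZA. Ctrl 3 was the highest library and the ZA values lay inside the Ctrl range. The log2 fold change of -0.03 ± 0.07 (SE; limma adjusted p = 0.899) had an interval of -0.18 to 0.13, and without Ctrl 3 it was 0.04.

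The replication machinery came next. Polg, the catalytic subunit of the mtDNA polymerase, was at 4.83, 4.97 and 5.02 FPKM in Ctrl and at 4.94, 4.97 and 5.15 FPKM in ZA. These 6 values lay within a narrow band, and ZA 3 alone was above all of Ctrl. The log2 fold change was 0.02 ± 0.04 (SE; limma adjusted p = 0.876), with an interval of -0.07 to 0.10.

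Polg2, the accessory subunit that helps POLG to stay on its template, was at 1.38, 1.51 and 1.62 FPKM in Ctrl and at 2.03, 1.72 and 1.26 FPKM in ZA. The ZA libraries held both the highest and the lowest value, from 132 fragments in ZA 1 and 84 fragments in ZA 3. With a log2 fold change of 0.08 ± 0.10 (SE; limma adjusted p = 0.779) it had the widest interval of the members, -0.15 to 0.31, and the change was -0.01 without ZA 1 and 0.20 without ZA 3. With voom on the fragments it was 0.12, with an interval of -0.28 to 0.52. The FPKM of Polg was 3.09 to 3.49 times that of Polg2 in Ctrl and 2.43 to 4.07 times in ZA.

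Twnk, which encodes the helicase Twinkle that unwinds mtDNA ahead of the polymerase, was at 2.26, 1.81 and 2.11 FPKM in Ctrl and at 2.03, 2.21 and 2.05 FPKM in ZA. Here Ctrl 1 was the highest and Ctrl 2 the lowest library, so the ZA values lay inside the Ctrl range. The log2 fold change was 0.02 ± 0.06 (SE; limma adjusted p = 0.936), with an interval of -0.13 to 0.16.

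The mRNA-stability partners had log2 fold changes on either side of 0. Lrpprc, whose protein binds mitochondrial mRNAs and keeps them polyadenylated and stable, was at 11.4, 11.2 and 12.1 FPKM in Ctrl and at 12.3, 12.3 and 12.2 FPKM in ZA. All 3 ZA libraries lay above all 3 Ctrl libraries, which was so for 1 of the 9 members tested and, in this direction, for 11.4% of all genes tested (6.76% in the other direction, 18.1% in either). The means were 11.6 ± 0.511 FPKM and 12.3 ± 0.0651 FPKM (SD, n = 3 each), and the gap between the highest Ctrl and the lowest ZA library was smaller than the SD of Ctrl. The log2 fold change was 0.08 ± 0.04 (SE; limma adjusted p = 0.422), with an interval that held 0 near its lower bound of -0.0030. With voom on the fragments it was 0.09 (limma voom adjusted p = 0.352), with an interval of 0.0034 to 0.17.

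Slirp, the small RNA-binding partner that LRPPRC needs and protects, was at 43.4, 41.3 and 47.4 FPKM in Ctrl and at 38.2, 45.9 and 35.8 FPKM in ZA. ZA 1 and ZA 3 lay below all of Ctrl, while ZA 2 was the second highest of all 6 libraries. The means were 44.0 ± 3.09 FPKM and 39.97 ± 5.29 FPKM (SD, n = 3 each), a log2 fold change of -0.14 ± 0.09 (SE; limma adjusted p = 0.542) with an interval of -0.34 to 0.06. Without ZA 2 the change was -0.24 and passed the unadjusted threshold, but not the adjusted one. In GENCODE, 2914 of the 3104 exon bases of Slirp overlap Snw1 on the opposite strand, but the length behind its FPKM was 419 bases. At most 419 bases of this overlap were therefore counted, and how many is not known. Since the strand used in counting is not given, reads of a counted overlap cannot be assigned to either gene with certainty. The same holds for smaller opposite-strand overlaps of Polg (921 exon bases, with Fanci), Twnk (507, Mrpl43), Tfb1m (142, Tiam2), Polg2 (132, Milr1) and Slirp itself (122, Alkbh1).

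Set against each other, the FPKM of Slirp was 3.82, 3.70 and 3.90 times that of Lrpprc in Ctrl and 3.11, 3.72 and 2.93 times in ZA. Two-sided, the exact permutation test of this ratio (3.81 ± 0.104 against 3.25 ± 0.416, SD, n = 3 each) gave p = 0.2, where 0.1 is the smallest that 3 against 3 libraries allow. ZA 2 lay inside the Ctrl range and the other ZA libraries lay below it. Over the 6 libraries, the log2 values of the partners had a Pearson r of -0.09, given as a description with the groups pooled.

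The members also differed in how far libraries of 1 group scattered. The variance of the fragments relative to pure counting error had a median of 1.97 over all genes in Ctrl and 2.08 in ZA. Slirp reached 12.3 in ZA, Polrmt 6.41 in Ctrl and Polg2 5.87 in ZA. At the other end Lrpprc was at 0.0669 in ZA against 4.36 in Ctrl, and Tfb2m at 0.0526 in Ctrl against 4.22 in ZA. With 3 libraries such a ratio is itself imprecise, and values far below 1 mean that the 3 libraries lay closer together than counting error would place them on average.

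By the rule of the highest Pearson correlation of log2(FPKM + 1), the genes most like Lrpprc over the 6 libraries were Ppp1r11 (r = 0.996), Cbr2 (r = 0.986) and Zfp729a (r = 0.985). Ppp1r11 was at 13.8 ± 0.992 FPKM in Ctrl and 15.5 ± 0.134 FPKM in ZA (SD, n = 3 each), with Ctrl 2 the lowest and ZA 2 the highest library, as for Lrpprc. Correlations above 0.9 with Lrpprc were found for 114 genes, and the points share libraries and groups. Among the members the highest correlation was that of Polg with Tfam (r = 0.859) and the lowest that of Slirp with Tfb2m (r = -0.75).

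Most of the mRNAs on which these proteins act were lower in ZA at the unadjusted threshold. All 13 mitochondrially encoded mRNAs had a negative log2 fold change, with a median of -0.22, and 9 had an unadjusted p under 0.05, against 4.85% of all genes in this direction. The changes were not uniform: COX1 (-0.03) and ATP8 (-0.02) were near 0, and they, ND4L (-0.20) and ND6 (-0.27) did not pass the unadjusted threshold. At the adjusted threshold 4 fell (0.163% of all genes did so): COX3 by 1.11, CYTB by 0.30, COX2 by 0.27 and ND2 by 0.19 on the log2 scale. Together these mRNAs took 2.002%, 1.93% and 1.96% of the fragments in Ctrl and 1.88%, 1.82% and 1.76% in ZA, so that every ZA library lay below every Ctrl library. COX3 passed the adjusted threshold under 12 of 14 alternatives, CYTB under 8, COX2 under 6 and ND2 under 5, and all 4 were lost without a filter and without ZA 2. In bulk RNA, fewer cells of a kind and less RNA per cell cannot be told apart. For 8 of the 9 members tested the 95% interval lay above -0.22, and for Slirp it held that value. With voom, which does not shrink low genes, it lay above the median of these mRNAs (-0.23) for 6 of the 9 and held it for Tefm, Polg2 and Slirp. These medians come from the same 6 libraries and have an error of their own, which the counts leave out. The difference between the members and these mRNAs was not tested. The largest fall, that of COX3, was in a gene at 35.1 FPKM in Ctrl, and COX2 was at 45.9 FPKM, where CYTB was at 1928 FPKM. The handling of reads shared with nuclear copies of mtDNA is not given, which limits the calls of both COX3 and COX2.

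**Figure D3:**
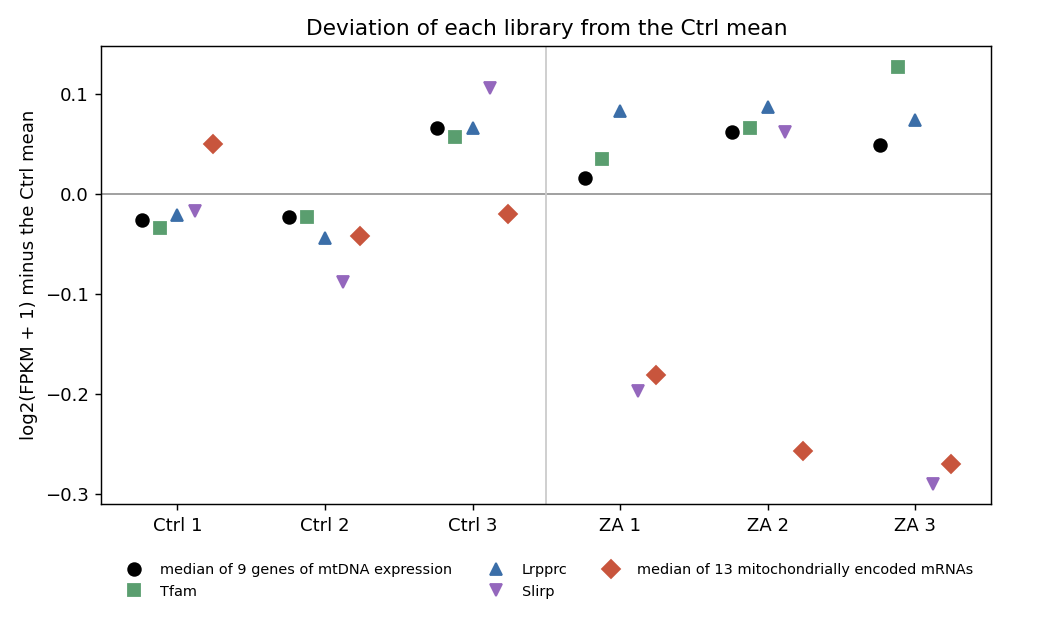
Deviation of each library from the Ctrl mean, in log2(FPKM + 1), for the median of the 9 genes tested, Tfam, Lrpprc, Slirp and the median of the 13 mitochondrially encoded mRNAs. In ZA the last lies at -0.18 to -0.27 in all 3 libraries and the median of the 9 genes at 0.02 to 0.06, while Slirp is at -0.20, 0.06 and -0.29.

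The wider nuclear pathway was described by 7 lists with 110 genes, of which 100 were tested. Of these, 57 were higher and 43 lower in ZA, with a median log2 fold change of 0.01, and 12 of the 100 had an unadjusted p under 0.05, beside 12.3% of all genes. At the adjusted threshold the count was 0, as for the members. Values below are log2 fold changes with mean FPKM in Ctrl and ZA (n = 3 each).

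Among 12 further genes of mtDNA replication and the nucleoid, 6 were higher and 6 lower, and 0 had an unadjusted p under 0.05. Those with the largest limma statistic were the nucleoid-associated ATPase gene Atad3a (-0.10, from 7.37 ± 0.383 to 6.83 ± 0.0911 FPKM, SD), the topoisomerase gene Top3a (-0.13) and the nuclease gene Endog (-0.08). In nucleotide supply, 7 of the 9 genes tested were higher. Rrm2b, the ribonucleotide reductase subunit of cells that do not divide, had a log2 fold change of 0.16, from 3.29 ± 0.0592 to 3.81 ± 0.343 FPKM (SD; limma adjusted p = 0.304), and passed the unadjusted threshold. The deoxyguanosine kinase gene Dguok (0.10) and the dNTP hydrolase gene Samhd1 (0.11) did not pass the unadjusted threshold.

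RNA processing, modification and decay held 26 tested genes, 16 higher and 10 lower, of which 2 higher and 1 lower had an unadjusted p under 0.05. These were the tRNA thiolation enzyme gene Trmu (0.20), the oligoribonuclease gene Rexo2 (0.08) and the tRNA methyltransferase gene Trmt5 (-0.10). In the mTERF family and rRNA modification, 7 of 16 tested genes were higher. Mterf4, which works with NSUN4 in the assembly of the mitochondrial ribosome, came closest to the adjusted threshold of all 100 list genes, with 5.98 ± 0.307 FPKM in Ctrl and 7.17 ± 0.101 FPKM in ZA (SD). Its 3 ZA libraries lay above its 3 Ctrl libraries, and its log2 fold change was 0.23 ± 0.04 (SE; limma adjusted p = 0.0785). The RNA methyltransferase gene Trmt61b (-0.17) was lower at the unadjusted threshold, and the helicase gene Ddx28 (0.09) did not pass it.

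Translation factors held 13 tested genes, 7 higher and 6 lower. The release factor genes Mtrf1 (0.20) and Mtrf1l (0.19) were higher and the elongation factor gene Tsfm (-0.14) was lower at the unadjusted threshold. Of 15 tested aminoacyl-tRNA synthetase genes 9 were higher, and Fars2 (0.12) alone passed the unadjusted threshold, while Wars2 (0.12) and Rars2 (-0.09) did not. With voom the changes of the low genes Fars2, Wars2 and Mtrf1l were 0.22, 0.22 and 0.30. Among the genes named from the 7 nuclear lists, Wars2, Top3a and Pprc1 then passed the unadjusted threshold and Trmt5 and Tsfm did not, and none passed the adjusted one.

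**Figure D4:**
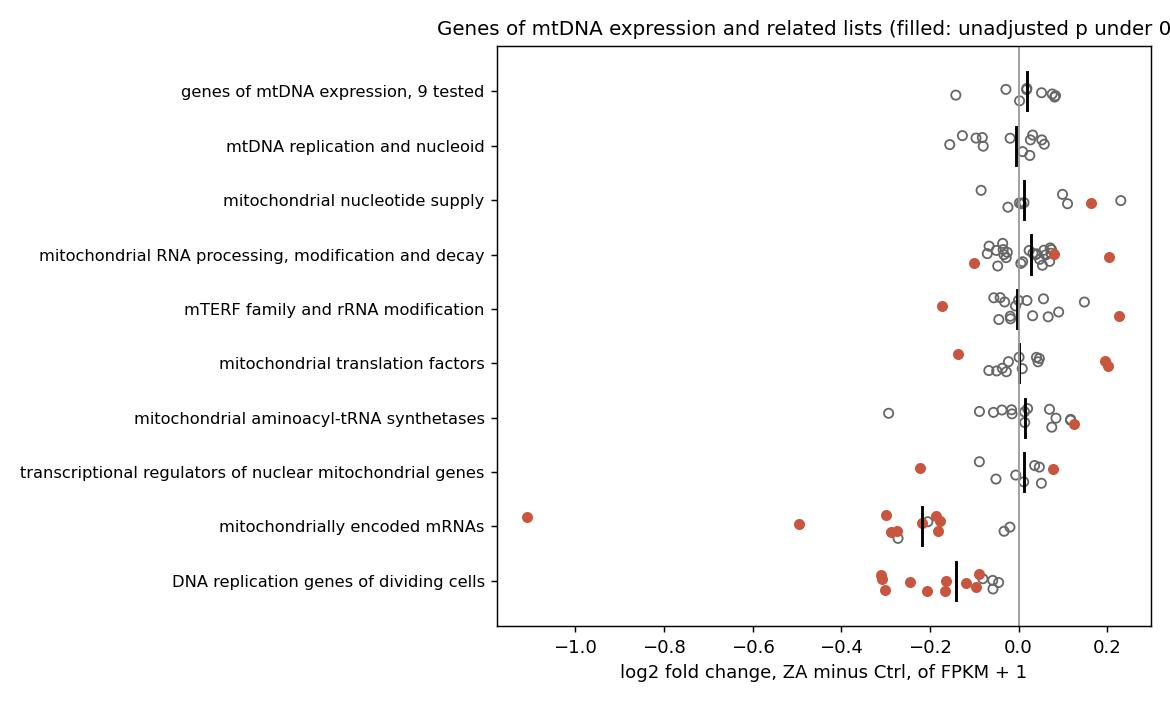
Log2 fold change (ZA minus Ctrl, of FPKM + 1) of each tested gene, 1 row per list, with filled points for an unadjusted limma p under 0.05 and a black bar at each median; the vertical jitter carries no value. The 9 genes of mtDNA expression and the 7 nuclear lists centre near 0, and the mitochondrially encoded mRNAs (median -0.22) and the replication genes of dividing cells (median -0.14) lie to the left.

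Regulators of nuclear mitochondrial genes held 9 tested genes, 5 higher and 4 lower. Nrf1 was at 1.51 ± 0.0469 FPKM in Ctrl and 1.57 ± 0.0842 FPKM in ZA (SD; log2 fold change 0.04), and Gabpa, the DNA-binding subunit of GABP, at 9.58 ± 0.518 and 9.97 ± 0.461 FPKM (0.05). For both the groups overlapped. The coactivator gene Ppargc1a had between 0 and 3 fragments in a library, which leaves no level to compare. The proliferation regulator Myc (-0.22; limma adjusted p = 0.301), the corepressor Ncor1 (0.08) and the coactivator Pprc1 (-0.09) had the largest statistics of the list, and Myc and Ncor1 passed the unadjusted threshold.

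A list of genes that copy nuclear DNA or mark dividing cells was set beside those that copy mtDNA. All 14 tested genes of this list were lower in ZA, 10 at an unadjusted p under 0.05 (4.85% of all genes in this direction), with a median log2 fold change of -0.14. Rrm1 (-0.06), Mki67 (-0.06), Cdk1 (-0.05) and Ccnb1 (-0.08) did not pass the unadjusted threshold. Over all genes tested 43.1% were lower. At the adjusted threshold 3 fell (0.163% of all genes): the replication clamp Pcna by 0.16, the helicase subunit Mcm5 by 0.31 and the ribonucleotide reductase subunit Rrm2 by 0.31 on the log2 scale. Pcna and Mcm5 passed it under 6 of 14 alternatives and Rrm2 under 5 of 13, and all 3 were lost without a filter, without a trend, and without Ctrl 1, 2 or 3, ZA 2 or ZA 3. Polg, Polg2 and Twnk were at 0.02, 0.08 and 0.02 on that scale. The difference between these lists was not tested, nor was the part in it of the other cell types whose summed markers are given above.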

How the data were processed

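RNA of 6 BMDM cultures (3 Ctrl, 3 ZA) was sequenced as 150-base paired reads, and the authors deposited 1 table of FPKM per gene and library. The submitters' processing notes name mm9, and the aligner and counter are not given in the sources used here. In all but 11 of its 35434 rows the separators were lost. Rows were cut again by the form of the numbers (20326) or by requiring whole fragments in all libraries (15066), 42 were left out, and the 11 intact rows were restored identically. All 19338 rows with a value above 0 held whole fragments. For rows cut by whole fragments this was fixed in advance, so it was a check only of the other rows. Of 5000 simulated rows 4998 were restored exactly and 0 wrongly. Restored rows held 99.7% of each library's fragments.

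The 9800 genes whose mean FPKM reached 1 were compared as log2(FPKM + 1), which understates changes of low genes, with limma 3.58.1 in R 4.3.3 (eBayes with a trend, two-sided, Benjamini-Hochberg). On simulated data 200 genes were shifted by 1 on this log2 scale, which is more than 2-fold in FPKM for low genes. Of them 98.5% were called, with 6 unchanged genes called, and smaller shifts were not simulated. Alternatives were a pseudocount of 0.1, no filter or a mean FPKM of 5, median centring, quantile normalization, no trend, the replicate number as a block, voom on the fragments, and leaving out each library. Libraries of a group were not duplicates (chi-square per gene 3.52 to 9.73).

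Members, lists and tests were chosen with earlier results of these data known. Named are the members, the 3 genes of each list with the largest limma statistic and list genes past the adjusted threshold. Also named are the 3 genes most like the member with the largest statistic, and macrophage markers. Nrf1, Gabpa, Ppargc1a, Ly6g, COX1, ATP8, ND4L, ND6, Rrm1, Mki67, Cdk1 and Ccnb1 were added after their values were seen. Promoters are from RefSeq (GRCm38.p6), which is not the build of the files, and all 10 members matched by symbol. Tables were read with Python 3.11.15.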

Additional observations from a re-analysis of the deposited data

How the results depend on the processing

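No member passed the adjusted threshold under any alternative, with adjusted p between 0.275 and 0.666 for Lrpprc and between 0.266 and 0.833 for Slirp. Among the members' values under the alternatives, 110 kept their direction and their side of the adjusted threshold and 10 turned. Tfb2m turned under median centring (-0.0102) and quantile normalization (-0.0059). Leaving out a library gave -0.0069 to 0.0985 for Polrmt (below 0 without Ctrl 1), -0.043 to 0.0543 for Tfb2m (below 0 without Ctrl 2, ZA 1 or ZA 3), -0.0725 to 0.0424 for Tefm (above 0 without Ctrl 3), -0.0126 to 0.198 for Polg2 (below 0 without ZA 1) and -0.0421 to 0.0648 for Twnk (below 0 without Ctrl 2 or ZA 2).

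The 36 genes at the adjusted threshold became 1 without a filter, 20 with quantile normalization, 1 without a trend and 132 with voom (71 higher, 61 lower), and 0 to 25 without 1 library, with 0 (973 at the unadjusted threshold) without ZA 2, 1 without Ctrl 1 or Ctrl 2, 4 without ZA 3 and 6 without Ctrl 3. The split at the unadjusted threshold, 735 higher and 475 lower, was 508 and 664 with median centring and 574 and 589 with quantile normalization. Members at the unadjusted threshold were 1 with voom and 0 to 1 without 1 library: Lrpprc without Ctrl 3, Slirp without ZA 2 and Polg2 without ZA 3. The 12 list genes at the unadjusted threshold were 5 with a mean FPKM of at least 5 and 7 to 14 without 1 library (7 without ZA 1).

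With the replicate block 78 genes passed the adjusted threshold, including 32 of the 36, and no member did. Same-numbered libraries had correlations of their deviations of 0.284, 0.0393 and 0.28 for numbers 1, 2 and 3 across genes. These values do not settle whether libraries of the same number share an origin. The numbers were not taken as pairs in the main fit because the labels do not say that a number marks a shared animal or day. The causes of these shifts were not tested. Depth limits the low genes: Polg2 had 84 to 132 fragments in a library.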
